A study of Mus musculus with 20 samples.

Results

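Expression of 9 genes that mark lipid-associated macrophages was followed across the stromal and immune cells of mouse interscapular brown adipose tissue (iBAT). The genes were Trem2, Tyrobp, Gpnmb, Cd9, Syngr1, Gdf15, Apoe, Lgals3 and Plin2, and they were found by exact match of the symbol in the deposited gene tables, where they make up 9 of the 31053 listed genes. Their levels were read in macrophage-like, monocyte-like and dendritic-like cells of the libraries enriched for immune lineage markers (Lin+) and in stromal cells of the libraries depleted of them (Lin-). The measurement was droplet single-cell RNA-seq of the stromal vascular fraction.

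The C57 mice, all male, came in 3 groups with 2 Lin+ and 2 Lin- libraries each. The RT group stayed at room temperature (24 °C), the COLD group spent 4 days at 6 °C, and the CL group received CL316,243, an agonist of the β3-adrenergic receptor, by infusion of 0.75 nmol per hour over 4 days. A further line, all female and all homozygous for floxed Adrb1, received tamoxifen in both genotypes. The KO mice carried Pdgfra-CreERT2, which deletes Adrb1 in Pdgfra-expressing stromal cells rather than in macrophages, and the WT mice lacked it. Each genotype was sampled at RT and in COLD with 1 library per fraction. All mice were 8 to 14 weeks old, and every library pooled the tissue of 3 to 4 mice, so that p-values measure the spread between pools.

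TREM2 is a surface receptor of myeloid cells that binds lipids and lipoproteins and signals through the adaptor TYROBP. Macrophages that take up lipid in adipose tissue, atherosclerotic plaque and injured brain are known to express TREM2 together with genes for lysosomes, lipid storage and lipid export. Brown adipose tissue burns its stored lipid when sympathetic nerves release noradrenaline in the cold, and resident and recruited macrophages lie between its adipocytes.

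Across the 10 Lin+ libraries, 2424 to 10250 cells per library were kept, with 9388617 to 41979839 UMIs in total. Macrophage-like cells numbered 14286 of 59935 and made up 10.2% to 41.9% of the kept cells of a library. Monocyte-like cells numbered 4591 and dendritic-like cells 8205. Of 66339 kept Lin- cells, 15290 were ASC1-like, 11936 ASC2-like and 8698 ASC3-like, the 3 types of adipose stromal cell (ASC). The 9 genes and the cell type markers were left out of the genes used for clustering. The Lin- library of RT replicate 2 kept 28% of its 22072 barcodes against 57.7% to 96.2% in the other libraries. The RT libraries of the Adrb1 line were made with version 3 of the kit and all others with version 2, so that kit and temperature cannot be told apart in that line. In the KO check, Adrb1 in ASC1-like cells stood at 5.76 CPM (summed counts of a gene, scaled to the total UMIs of the same cells) in WT RT and 3.97 in WT COLD, against 0 in KO RT and 0.52 in KO COLD.

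The level of each gene was the sum of corrected counts over the cells of a class in a library, given in CPM. By the median over the 10 libraries, macrophage-like cells held most of the Lin+ transcripts of 7 of the 9 genes. Their median share of the counts of all kept Lin+ cells, unnamed cells included, was 82.4% for Gpnmb, 81.2% for Apoe, 79.1% for Gdf15, 75.3% for Syngr1, 74.1% for Trem2, 64.9% for Plin2 and 54.6% for Lgals3. The share ranged over the libraries from 18.1% to 72.9% for Lgals3 and from 23.8% to 79.1% for Plin2, with up to 45.0% and 43.0% in monocyte-like cells, and was at least 55.6% for Gpnmb, Trem2, Syngr1, Gdf15 and Apoe. Tyrobp and Cd9 were spread over other myeloid cells, with median shares of 36.6% and 29.3%. Median Tyrobp over the 10 libraries was 5489 CPM in neutrophil-like cells and 4826 CPM in monocyte-like cells, above 3026 CPM in macrophage-like and 2030 CPM in dendritic-like cells. For Cd9, a tetraspanin found on many cell types, the neutrophil-like median was 674 CPM.

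The coordinates of the genes are those of the GRCm38 assembly, and all 9 are protein coding. Trem2 lies at chr17:48346401-48354147 on the plus strand, Gpnmb at chr6:49036546-49070929 on the plus strand, Syngr1 at chr15:80091334-80119501 on the plus strand and Gdf15 at chr8:70629393-70632456 on the minus strand. Tyrobp (chr7:30413760-30417585, plus strand) and Apoe (chr7:19696109-19699188, minus strand) share a chromosome, as do Gpnmb and Cd9 (chr6:125460266-125494791, minus strand). Lgals3 lies at chr14:47367751-47386160 on the plus strand and Plin2 at chr4:86648386-86670060 on the minus strand. The 250 bases before the RefSeq start (GRCm38.p6) are shown for 4 genes that rose together in macrophage-like cells in COLD, as described below. The stretches are chr17:48346151-48346400 (plus strand), chr6:49036268-49036517 (plus), chr15:80091084-80091333 (plus) and chr8:70632096-70632345 (minus), and capitals mark the only searched motif that falls within them, an E-box. RefSeq gives more than 1 window for Gdf15. The one shown was chosen because it holds the motif and lies inside the gene coordinates given for Gdf15, whereas the window directly before them (chr8:70632457-70632706) holds none of the motifs searched.
Trem2: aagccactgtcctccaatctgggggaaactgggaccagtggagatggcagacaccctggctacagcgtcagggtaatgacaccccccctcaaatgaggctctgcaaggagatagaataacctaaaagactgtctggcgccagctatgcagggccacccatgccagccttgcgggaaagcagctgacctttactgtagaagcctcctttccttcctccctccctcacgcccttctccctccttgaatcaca
Gpnmb: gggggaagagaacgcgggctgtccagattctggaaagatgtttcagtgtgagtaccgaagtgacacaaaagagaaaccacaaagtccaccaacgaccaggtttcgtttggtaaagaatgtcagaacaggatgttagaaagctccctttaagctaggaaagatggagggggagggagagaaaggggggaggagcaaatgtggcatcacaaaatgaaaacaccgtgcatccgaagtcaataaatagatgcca
Syngr1: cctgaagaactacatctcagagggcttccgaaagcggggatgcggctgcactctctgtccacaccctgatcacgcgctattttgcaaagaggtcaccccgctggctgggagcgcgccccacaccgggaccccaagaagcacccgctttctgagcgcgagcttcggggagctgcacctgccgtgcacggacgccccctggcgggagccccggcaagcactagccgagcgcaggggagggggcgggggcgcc
Gdf15: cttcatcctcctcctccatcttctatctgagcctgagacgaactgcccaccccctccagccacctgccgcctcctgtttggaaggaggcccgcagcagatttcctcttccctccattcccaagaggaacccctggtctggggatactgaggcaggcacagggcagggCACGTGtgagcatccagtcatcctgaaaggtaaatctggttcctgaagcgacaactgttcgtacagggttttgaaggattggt
RefSeq windows of 300 bases (250 before and 50 after the start) were given for 8 of the 9 genes, in 11 windows, and Tyrobp was not among them. Both strands were searched for the E-box CACGTG, which factors of the MITF and TFE family bind, and for the M-box TCATGTG, the AP-1 site TGACTCA and the PU.1 site GAGGAAGT. The E-box was present in 7.15% of 32851 windows, among them 1 window of Gdf15, starting 83 bases before the start, and that of Plin2, starting 4 bases before it. The AP-1 site was present in 5.20% of windows, among them that of Gpnmb, where it begins 8 bases after the start. The M-box (3.77% of windows) and the PU.1 site (3.20%) were in no window of the 9 genes. These are matches of letters only.

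In sums over the macrophage-like class, 7 of the 9 genes were higher in COLD, while Tyrobp and Apoe did not pass the test. Across all 11613 genes tested, 17.8% were called higher in this comparison and 17.1% lower. The clusters that make up the class changed in proportion with COLD and CL, as given below. In the class sums of either treatment, a change within cells and that shift between clusters cannot be told apart. The receptor Trem2 stood at 134 and 150 CPM in the RT replicates and at 882 and 918 CPM in the COLD replicates. Both COLD libraries lay well above both RT libraries, with a log2 fold change of 2.72 ± 0.23 (SE, n = 2 per group; adjusted p = 0.000141, edgeR quasi-likelihood test). Tyrobp, which encodes the adaptor, stood at 2710 and 2765 CPM at RT and at 3199 and 3115 CPM in COLD. The Tyrobp groups did not overlap, but the difference was small against the error of the fit (0.26 ± 0.23, adjusted p = 0.395), with a 95% interval of −0.25 to 0.76.

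The largest log2 fold changes among the 9 were those of Gpnmb and Syngr1. Gpnmb, which encodes a glycoprotein of lysosomal and plasma membranes, was low at RT (45.3 and 15.2 CPM) and reached 1544 and 1759 CPM in COLD. Its log2 fold change was 5.84 ± 0.50 (adjusted p = 0.000142). Few cells set the RT level. Of the 105 counts of RT replicate 1, 104 came from the 21 cells of cluster 14 (described below), and of the 44 counts of replicate 2, 30 came from the 59 cells of cluster 12 and 10 from the 19 cells of cluster 14. Syngr1, best known as a synaptic vesicle membrane protein, went from 9.49 and 6.53 CPM to 295 and 306 CPM (5.30 ± 0.37, adjusted p = 7.8e-05). Cd9 rose less, from 151 and 113 CPM to 373 and 443 CPM (1.68 ± 0.21, adjusted p = 0.000563). In each of these genes both COLD libraries were above both RT libraries.

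Of the lipid genes, Plin2, which coats lipid droplets, stood at 140 and 211 CPM at RT and at 1973 and 1998 CPM in COLD. Its log2 fold change was 3.55 ± 0.26 (adjusted p = 9.5e-05). Apoe, the apolipoprotein that carries lipid out of macrophages, was already abundant at RT (13511 and 18338 CPM), and the COLD values of 18554 and 12422 CPM overlapped with it. The Apoe difference was 0.01 ± 0.30 (adjusted p = 0.980), with an interval of −0.66 to 0.69. Lgals3, which encodes the lectin galectin-3, stood at 980 and 1031 CPM at RT against 11864 and 12053 CPM in COLD (3.63 ± 0.28, adjusted p = 9.8e-05). Gdf15, a stress-induced secreted factor, stood at 86.8 and 37.6 CPM at RT against 321 and 225 CPM in COLD (2.20 ± 0.36, adjusted p = 0.00214). For Plin2, Lgals3 and Gdf15 the groups did not overlap.

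CL infusion raised 5 of the 9 genes in macrophage-like cells, against 3.58% of all genes called higher and 6.28% called in either direction. The COLD and CL comparisons share the RT libraries. Trem2 stood at 876 and 563 CPM in the CL replicates, Gpnmb at 523 and 278 CPM, Syngr1 at 168 and 75.1 CPM, Lgals3 at 5642 and 3351 CPM and Plin2 at 969 and 837 CPM, all above both RT libraries. CL replicate 1 was the higher of the pair for each of these 5 genes. The log2 fold changes were 2.32 ± 0.23 for Trem2 (adjusted p = 0.0023), 3.71 ± 0.46 for Gpnmb (0.0055), 3.91 ± 0.37 for Syngr1 (0.0023), 2.13 ± 0.26 for Lgals3 (0.0055) and 2.35 ± 0.25 for Plin2 (0.0027). Gdf15 at 133 and 166 CPM gave 1.28 ± 0.36 (adjusted p = 0.0654), which passed with the replicate number as a block (1.36, adjusted p = 0.0171). Cd9 at 210 and 184 CPM gave 0.56 ± 0.21 (adjusted p = 0.124). Tyrobp (2938 and 3189 CPM) and Apoe (18652 and 22603 CPM) gave 0.16 and 0.38, with adjusted p = 0.692 and 0.458. The count of 5 rested in part on RT replicate 1. Without that library only Gpnmb passed, and the adjusted p of the other 4 genes was between 0.0647 for Syngr1 and 0.107 for Lgals3, with log2 fold changes of 2.10 to 4.19.

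The treatments were also compared directly. In COLD against CL, 5 of the 9 genes were higher in COLD (3.14% of all genes, with 8.03% called in either direction): Gpnmb by 2.13 ± 0.41, Lgals3 by 1.49 ± 0.26, Syngr1 by 1.39 ± 0.28, Plin2 by 1.2 ± 0.24 and Cd9 by 1.12 ± 0.20 on the log2 scale, with adjusted p from 0.00988 to 0.0176. For Trem2 the difference was 0.40 ± 0.22 (adjusted p = 0.267), with an interval of −0.08 to 0.88, so the levels could not be told apart at this replication. Gdf15 gave 0.92 ± 0.34 (adjusted p = 0.127), Apoe −0.37 ± 0.30 (adjusted p = 0.477) and Tyrobp 0.10 ± 0.23 (adjusted p = 0.816). Trem2 was not tested against the other genes. The count fell to 2 without COLD replicate 1 and to 0 without COLD replicate 2, where the adjusted p of the 5 genes lay between 0.0502 for Gpnmb and 0.104 for Plin2.

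**Figure D1:**
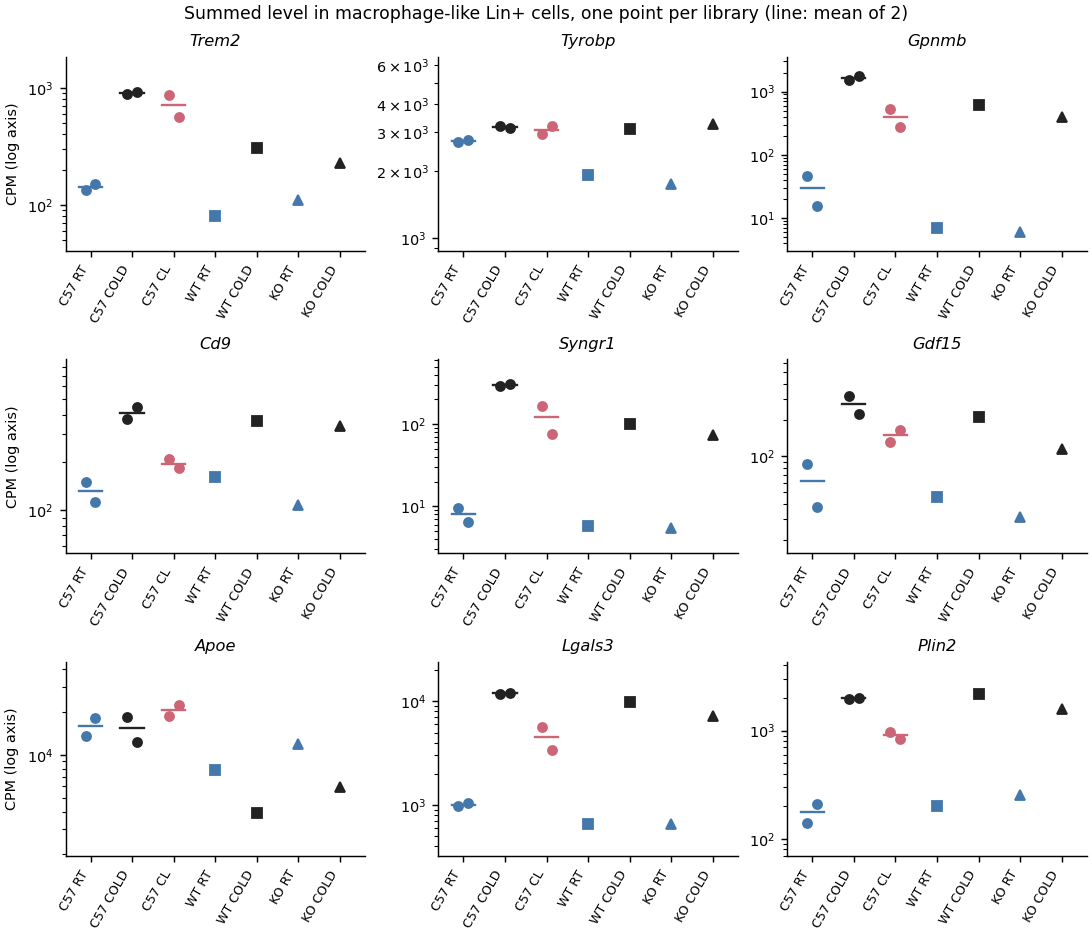
Level of each gene in macrophage-like cells, in CPM on a log axis, with 1 point per Lin+ library, lines for the mean of 2 C57 libraries, squares for WT and triangles for KO. For the 7 genes called in COLD every COLD library stood above every RT library, and Apoe values overlapped. Tyrobp ranged from 1753 to 3265 CPM and was called only in the fit of all 10 libraries.

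In the Adrb1 line the same 7 genes were higher in the COLD library than in the RT library of each genotype, without replicates. Tyrobp, not called in C57, passed in the fit of all 10 libraries, where kit version changed with temperature in this line. Trem2 was 81.0 CPM in WT RT and 306 CPM in WT COLD, and 109 CPM in KO RT and 229 CPM in KO COLD. Gpnmb was 6.92 and 618 CPM in WT and 6.02 and 401 CPM in KO, in the same order. Lgals3 was 653 and 9965 CPM in WT and 646 and 7183 CPM in KO, and Plin2 was 201 and 2160 CPM in WT and 253 and 1590 CPM in KO. The COLD levels of Trem2 and Gpnmb stayed below both C57 COLD libraries in both genotypes. The line differs from C57 in sex, floxed Adrb1 and tamoxifen, which cannot be told apart in this difference. Apoe was lower in COLD in both genotypes, at 3918 against 7840 CPM in WT and 5904 against 11918 CPM in KO. The C57 Apoe libraries had shown no such order, and kit version changed with temperature here.

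KO and WT were compared in 1 fit over the 10 Lin+ libraries, with temperature as a term. None of the 9 genes was called, in a comparison in which 1 of 11992 genes (0.00834%) passed and in which none of the 9 had an unadjusted p under 0.05. DESeq2 called 0 of the 9 as well. Apoe was higher in KO at both temperatures, by 0.60 ± 0.29 on the log2 scale with an interval of −0.03 to 1.23. Gdf15 was lower in KO at both temperatures (31.1 against 46.0 CPM at RT, 115 against 214 CPM in COLD), with a difference of −0.75 ± 0.35. The Trem2 difference was −0.02, with an interval of −0.54 to 0.50, and those of the other genes were −0.03 for Tyrobp, −0.07 for Plin2, −0.24 for Lgals3, −0.32 for Cd9, −0.33 for Syngr1 and −0.50 for Gpnmb. The adjusted p was 1 for all 9 genes.

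The macrophage-like class consisted of 3 clusters, and their proportions changed with treatment. Cluster 3 (4132 cells) raised all 8 listed markers of resident macrophages, such as Folr2 and Lyve1, and cluster 12 (4814 cells) raised all 8 listed inflammatory markers, such as Chil3 and Ccl2. Cluster 14 (5340 cells) was led by Gpnmb, Atp6v0d2, Syngr1, Ctsk and Trem2. Although the 9 genes had not entered the clustering, their levels between clusters are given as a description only. Cluster 3 made up 93.0% and 89.9% of macrophage-like cells in the RT replicates, 4.20% and 2.39% in COLD and 45.3% and 59.5% in CL. Cluster 12 made up 4.24% and 7.63% at RT, 45.8% and 39.2% in COLD and 18.3% and 18.1% in CL. Cluster 14 made up 2.79% and 2.46% at RT, 50.02% and 58.4% in COLD and 36.4% and 22.4% in CL. In the Adrb1 line, cluster 14 was 17.0% in WT RT and 24.7% in KO RT, and 38.9% and 33.0% in the COLD libraries. Gpnmb in these RT cells stood at only 34.0 CPM in WT and 11.9 CPM in KO, against 1246 and 857 CPM in COLD. Cd9 was 59.2 and 62.0 CPM against 576 and 559 CPM. Cluster 12 was 38.8% in WT RT, 20.9% in KO RT, 49.8% in WT COLD and 51.4% in KO COLD. The RT libraries of this line were made with another kit version, so their proportions are not compared with those of C57.

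Several members were also higher within single clusters. In cluster 3, 4 of the 9 genes were called higher in COLD (1.23% of all genes), although the COLD sums came from only 130 and 46 cells. Plin2 in cluster 3 was 74.7 and 152 CPM at RT against 693 and 559 CPM in COLD (2.28, adjusted p = 0.0023), and Lgals3 was 372 and 566 CPM against 1154 and 1966 CPM (1.53, adjusted p = 0.0278). Syngr1 was also called (3.07, adjusted p = 0.0104), at 42.4 and 25.1 CPM in COLD. Gpnmb, which held 1 and 4 counts in the RT libraries, went from 0.49 and 1.58 CPM to 90.3 and 44.3 CPM (adjusted p = 8.6e-05). Lymphocyte-like cells of the C57 COLD libraries held 42.7 to 88.1 CPM of Gpnmb and 13.4 to 25.8 CPM of Syngr1, so the lower COLD value of each gene in cluster 3 lay within that background and the higher one above it, for Gpnmb by little. During CL, 5 genes were called higher in cluster 3 (1.44% of all genes), and Trem2 was among them, at 608 and 385 CPM against 105 and 147 CPM at RT (1.86, adjusted p = 0.0088). The Trem2 values in COLD, 422 and 187 CPM, gave 1.12 (adjusted p = 0.0938). With so few cells, single libraries decided several calls. In COLD, Lgals3 was lost without any of the 4 RT and COLD libraries (adjusted p of 0.0701 to 0.317), Plin2 without RT replicate 1 or COLD replicate 1 (0.0628 and 0.0686) and Syngr1 without RT replicate 1 or either COLD library (0.0507 to 0.331). In CL, Lgals3 was lost without either RT library, and Plin2 and Trem2 without RT replicate 1 (adjusted p of 0.0539 to 0.308).

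In cluster 12, 6 of the 9 genes were called higher in COLD (1.5% of all genes), with RT sums of 32 and 59 cells. Trem2 was 123 and 77.7 CPM at RT against 391 and 490 CPM in COLD (2.13, adjusted p = 0.0133). Apoe passed here, at 2003 and 3518 CPM at RT against 6965 and 8365 CPM in COLD (1.45, adjusted p = 0.0462). Plin2 (2.00) and Lgals3 (1.53) were called as well. The calls of Gpnmb and Syngr1 rest on few RT counts, 0 and 30 for Gpnmb and 0 and 2 for Syngr1 in replicates 1 and 2. Leaving out any RT or COLD library ended the call of Apoe (adjusted p of 0.0522 to 0.211), leaving out RT replicate 1 or COLD replicate 1 those of Plin2 and Lgals3 (0.0888 to 0.149), leaving out RT replicate 1 that of Syngr1 (0.0694) and leaving out RT replicate 2 that of Trem2 (0.0551). None of the 9 was called in cluster 12 during CL (0.0364% of all genes called higher), where 6 had an unadjusted p under 0.05. Cluster 14 held 21 and 19 cells in the RT libraries, and none of the 9 was called there in COLD (0.204%) or CL (0.122%), where 6 and 3 genes had an unadjusted p under 0.05. Trem2 in cluster 14 was 659 and 424 CPM at RT, 1221 and 1169 CPM in COLD and 1249 and 1085 CPM in CL. Gpnmb there was 894 and 101.8 CPM at RT, from 104 and 10 counts. After thinning to 1000 UMIs, Gpnmb was found in 2 of 168 RT cells of cluster 14 over both lines (1.19%), against 56.9% of the COLD cells, and Syngr1 in 4 of 168 (2.38%) against 23.7%. Before thinning, 59 of the RT cells came from WT RT and 72 from KO RT, so these RT shares mostly describe the Adrb1 line.

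Cd9 was not called within any of the 3 clusters. In COLD its log2 fold change was −0.70 in cluster 3 (adjusted p = 0.345), −0.10 in cluster 12 and −0.11 in cluster 14. Its level was lowest in cluster 3 in every C57 library, for example 100 and 86.1 CPM in cluster 3 and 742 and 388 CPM in cluster 14 at RT. The share of thinned cells with Cd9, pooled over the libraries of both lines, went from 7.02% at RT to 12.7% in COLD in cluster 3, from 26.6% to 19.5% in cluster 12 and from 9.52% to 30.5% in cluster 14. These shares, which were not tested, were higher in COLD in clusters 3 and 14, where the log2 fold changes of the C57 sums were below 0. They mix lines, and at RT also kits. Before thinning, cluster 14 held 21 and 19 RT cells of C57, against 59 of WT and 72 of KO, at 59.2 and 62.0 CPM of Cd9. In COLD, cluster 3 held 130 and 46 cells of C57 (73.2 and 56.3 CPM), 290 of WT (188 CPM) and 120 of KO (95.1 CPM). No change within a cluster is read from the pooled shares. The proportions of the clusters moved with the rise of Cd9 over the class, and their part in it was not tested. Gdf15 was likewise not called within any of the 3 clusters in COLD. At RT and in COLD it was 67.4 and 29.5 against 83.9 and 67.4 CPM in cluster 3. It was 111 and 89.2 against 285 and 159.5 CPM in cluster 12, and 394 and 101 against 357 and 264 CPM in cluster 14.

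**Figure D2:**
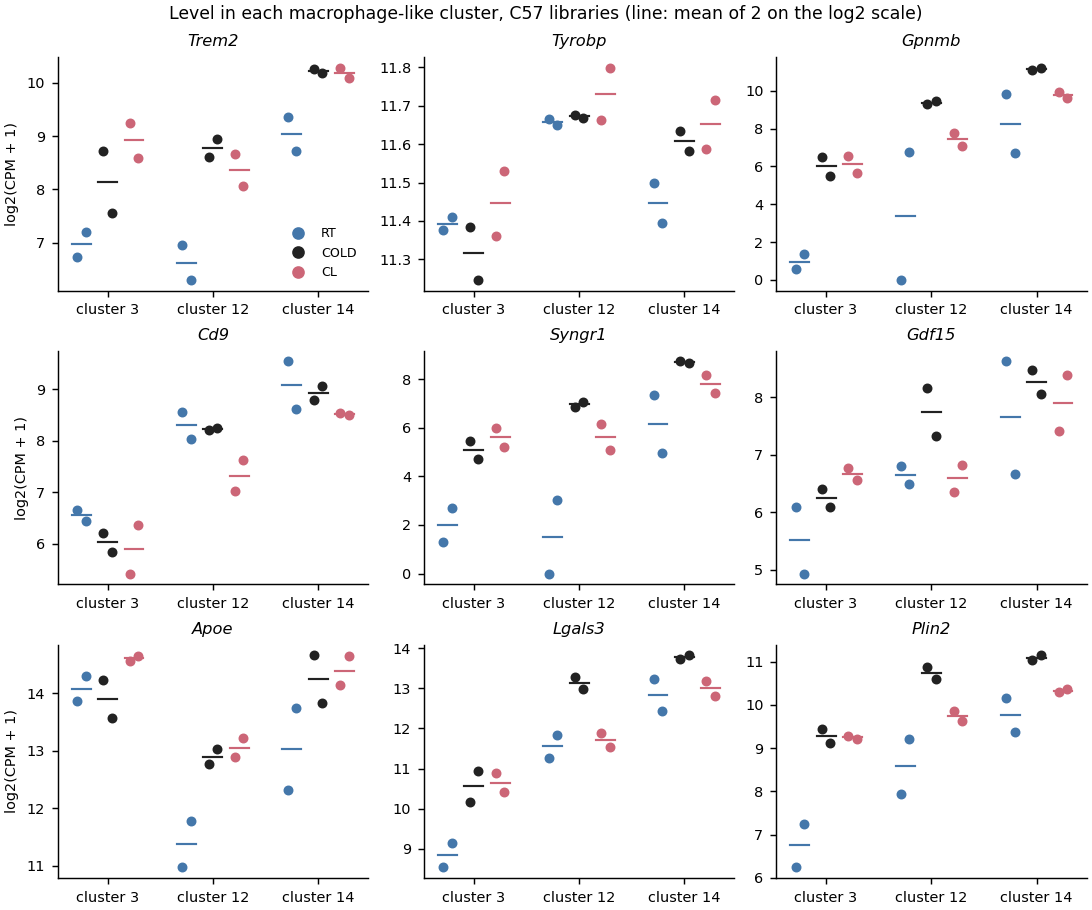
Level of each gene, as log2(CPM + 1), in the 3 macrophage-like clusters of the 6 C57 Lin+ libraries, with lines for the mean of 2 libraries on that scale. Means of Trem2, Gpnmb, Syngr1, Lgals3 and Plin2 were higher in COLD than at RT in clusters 3 and 12, and the RT points of cluster 14 are sums of 21 and 19 cells.

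The share of macrophage-like cells with at least 1 UMI of a gene was compared after thinning every cell to 1000 UMIs, because median depth ranged from 2862 to 5722 UMIs per library. Gpnmb was detected in 33.2% ± 15.3 of cells in the 4 COLD libraries (both lines; SD, n = 4) and in 0.20% ± 0.26 in the 4 RT libraries. Without thinning, the means were 49.6% and 1.28%. Lgals3 was detected in 88.4% ± 4.14 against 31.0% ± 5.13, Plin2 in 72.0% ± 4.38 against 15.7% ± 4.49 and Trem2 in 31.7% ± 14.3 against 8.91% ± 3.74. Unthinned, these were 93.3% against 56.8% for Lgals3, 93.1% against 41.7% for Plin2 and 59.96% against 27.9% for Trem2. Cd9 (24.1% ± 2.62 against 10.4% ± 2.70), Gdf15 (15.6% ± 5.84 against 2.54% ± 1.09) and Syngr1 (12.7% ± 8.02 against 0.35% ± 0.26) moved the same way. For these 7 genes no COLD library overlapped with an RT library, and the two-sided exact permutation test gave p = 0.0286, the smallest that 4 against 4 libraries allow. That test pools the lines, whose Gpnmb shares in COLD differed (43.7% and 48.0% in C57, 25.5% in WT and 15.5% in KO). Permuted within line, the exact test gave p = 0.0556 for each of the 7 genes, the smallest it can give. With the C57 libraries alone, the smallest possible p was 0.33.

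For Tyrobp and Apoe the COLD and RT libraries of both lines overlapped. Tyrobp was detected in 91.7% ± 1.19 of COLD cells and 83.7% ± 7.2 of RT cells (exact permutation p = 0.0571). Apoe was detected in 71.1% ± 3.69 of COLD cells and 86.0% ± 10.9 of RT cells (exact permutation p = 0.114). The overlap of Apoe came from WT RT (70.4%), and without that library the COLD shares of 66.2% to 75.1% lay below the RT shares of 87.0% to 93.6% (exact permutation p = 0.0571, the smallest for 4 against 3). In C57 the shares were 72.1% and 75.1% in COLD against 93.6% and 93.2% at RT, while no difference of the summed level was called in the same libraries. Thinning to 2000 UMIs gave 76.5% against 92.2% over both lines (exact permutation p = 0.0286). Thinning left out 380 macrophage-like cells of the 10 libraries.

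The members were also detected together. After thinning, a macrophage-like cell held a mean of 2.43 and 2.58 of the 9 genes in the RT replicates, 4.77 and 4.89 in COLD and 3.92 and 3.71 in CL. Cells with 6 or more of the 9 made up 0.98% and 0.93% of the class at RT, 33.8% and 36.5% in COLD and 13.6% and 10.2% in CL. In the Adrb1 line they made up 16.5% in WT COLD and 10.3% in KO COLD, and no such cell was found at RT. Gpnmb was detected in 60.6% of Trem2-positive and 31.6% of Trem2-negative macrophage-like cells of COLD replicate 1, and in 62.5% and 35.7% of COLD replicate 2. In the CL replicates the corresponding shares were 24.5% and 10.3%, and 17.6% and 6.51%. These shares are over the whole class, whose clusters differ in both genes. Over both lines in COLD, Trem2 was in 18.3% of thinned cells of cluster 12 and 51.3% of cluster 14, and Gpnmb in 19.8% and 56.9%. Joint detection within a cluster, or beyond the single shares, was not tested.

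Lymphocytes, which are not known to express Trem2 or Gpnmb, served as a background for free RNA. In COLD, Gpnmb was detected in 3.37% to 6.05% of thinned B lymphocyte-like cells and 3.68% to 4.76% of T/NK-like cells of the C57 replicates, whose median depth was 1100 to 1171 and 1623 to 1708 UMIs before thinning. Trem2 was detected in 3.18% to 3.91% and 3.44% to 3.5% of these cells. In the CL replicates, Trem2 was in 6.84% and 0.95% of B lymphocyte-like cells and 5.56% and 2.07% of T/NK-like cells. At RT both genes were in at most 0.45% of either class. In summed counts, 4 of the 9 genes were called higher in COLD in B lymphocyte-like cells (0.0985% of all genes called higher) and 5 in T/NK-like cells (1.15%). Gpnmb, Trem2, Plin2 and Syngr1 were called in both, with Plin2 at 2.74 ± 0.45 in the former and 1.83 ± 0.31 in the latter. All 4 calls in B lymphocyte-like cells were lost without COLD replicate 1 (adjusted p of 0.362 to 0.435). Gpnmb, Plin2 and Trem2 were also lost there without COLD replicate 2 (0.121 to 0.173), Plin2 and Syngr1 without RT replicate 1 (0.0703 and 0.377) and Syngr1 without RT replicate 2 (0.106). In T/NK-like cells Lgals3 was lost without any RT or COLD library and Syngr1 without RT or COLD replicate 2. Macrophage-like shares in the same libraries, 43.7% and 48.0% for Gpnmb, stood far above these values.

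**Figure D3:**
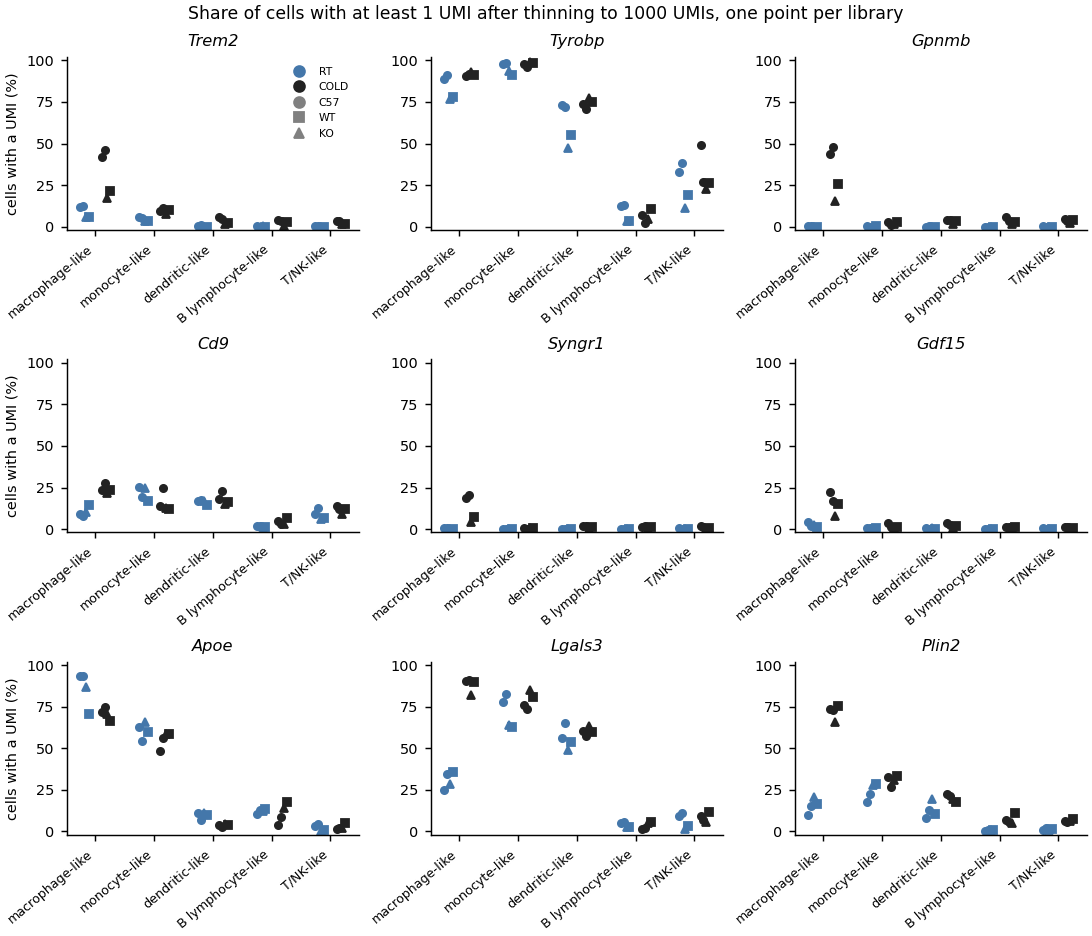
Share of cells with at least 1 UMI of each gene after thinning to 1000 UMIs, in percent, for 5 Lin+ classes, with 1 point per RT or COLD library (circles C57, squares WT, triangles KO). Gpnmb and Syngr1 separated COLD from RT in macrophage-like cells, and the dendritic-like shares of both lay in the range of the lymphocytes.

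Dendritic-like cells showed 6 of the 9 genes called higher in COLD (6.29% of all genes, with 7.25% lower) and 5 in CL (0.479%). Over both lines, summed monocyte markers in dendritic-like cells were 1137 to 1724 CPM at RT, 2288 to 3529 CPM in COLD and 2066 to 2088 CPM in CL. Summed macrophage markers were 712 to 1319 CPM at RT, 780 to 1734 CPM in COLD and 1821 to 3000 CPM in CL. Neutrophil markers were 170 to 1831 CPM at RT against 23.1 to 155 CPM in COLD, and VEC markers 32.4 to 39.1 CPM against 55.8 to 89.8 CPM. In CL, adipocyte markers (35.5 to 98.1 CPM, RT 21.9 to 23.9) and ASC markers (17.3 to 47.2 CPM, RT 1.86 to 12.1) lay above RT and T lymphocyte markers (17.4 to 36.6 CPM, RT 43.6 to 145) below it. The part of these in the calls was not tested. Trem2 stood at 8.10 and 6.71 CPM at RT, 109 and 92.7 CPM in COLD and 169 and 89.3 CPM in CL. Its log2 fold change was 3.51 ± 0.28 in COLD (adjusted p = 0.00062) and 3.87 ± 0.28 in CL (adjusted p = 0.0021). The share of thinned dendritic-like cells with Trem2 was 5.98% and 4.43% in COLD, at median depths of 5435 and 5876 UMIs, against at most 3.91% in lymphocytes. In CL it was 7.81% and 5.1%, and the lymphocytes of CL replicate 1 reached 6.84% and those of CL replicate 2 reached 2.07%. Gpnmb (2.28 and 0.46 CPM at RT, 89.4 and 122 CPM in COLD) and Syngr1 (0 and 0.92 CPM, 22.7 and 17.6 CPM) were called with adjusted p = 0.00104 and 0.00448, and their RT sums held 5 and 1 counts and 0 and 2 counts, too few for a fold. The Gpnmb share of the whole class in COLD, 3.96% and 4.25%, lay within the lymphocyte range, and no expression is read from that share. Before thinning, dendritic-like cells were the deeper ones, and the summed Gpnmb level of lymphocytes in COLD was 42.7 to 88.1 CPM. The clusters of the class differed. Cluster 13 held 156 and 225 CPM of Gpnmb in COLD (4.45 and 0.85 CPM at RT), above that range. Clusters 15, 16 and 17 held 13.3 to 43.3 CPM in COLD, and the difference between clusters was not tested. In CL Gpnmb was called at 101 and 39.7 CPM (adjusted p = 0.0113), against 4.42 to 38.6 CPM in lymphocytes.

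Lgals3 and Plin2 were above that background in dendritic-like cells. Plin2 was 106 and 144 CPM at RT, 436 and 407 CPM in COLD and 405 and 363 CPM in CL, with log2 fold changes of 1.55 ± 0.19 in COLD (adjusted p = 0.0028) and 1.44 ± 0.19 in CL (adjusted p = 0.0193). It was detected in 22.3% and 21.5% of thinned dendritic-like cells in COLD. Lgals3 was 1377 and 1677 CPM at RT against 4130 and 4022 CPM in COLD (1.21 ± 0.21, adjusted p = 0.0108), and 3757 and 2706 CPM in CL (0.89, adjusted p = 0.0983). Its thinned shares of 60.1% and 57.4% in COLD overlapped with the 56.4% and 65.3% at RT. Gdf15 rose by 3.22 ± 0.47 in COLD (adjusted p = 0.0055) from 6.81 and 0.89 CPM to 49.5 and 35.5 CPM, and was 50.5 and 31.8 CPM in CL (3.18 ± 0.49, adjusted p = 0.0280). Its thinned shares were 3.65% and 2.34% in COLD, where lymphocytes reached 1.31%, and 4.13% and 1.77% in CL, where they reached 3.42% in replicate 1 and 0.68% in replicate 2. Apoe was called in CL only in the tests run here, at 1313 and 984 CPM against 267 and 250 CPM at RT (1.96 ± 0.29, adjusted p = 0.0253), and gave 0.31 in COLD (491 and 257 CPM). Its thinned shares in CL, 7.2% and 21.3%, stood beside 5.13% and 29.1% in B lymphocyte-like cells of the same libraries. Cd9 (0.13 in COLD) and Tyrobp (−0.08) were not called under either treatment. In COLD, the call of Lgals3 was lost without RT replicate 1 or either COLD library (adjusted p of 0.0838 to 0.0971) and that of Syngr1 without RT replicate 1 (0.0622). The CL calls in dendritic-like cells depended on single libraries, with 0 of 9 called without RT replicate 1, 2 without RT replicate 2 and 3 without CL replicate 1. Syngr1 during CL passed with the replicate block (4.3, adjusted p = 0.0209) and not without it (adjusted p = 0.0571).

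Few of the genes passed the test in monocyte-like cells. Of 8 genes tested, Plin2 and Gpnmb were called higher in COLD (0.586% of all genes). Plin2 was 209 and 252 CPM at RT against 590 and 451 CPM in COLD (1.09 ± 0.21, adjusted p = 0.0381). Gpnmb was 1.46 and 0 CPM at RT against 34.9 and 27.9 CPM in COLD (adjusted p = 0.0306), with 2 and 0 counts at RT and at most 2.70% of thinned cells in the C57 COLD libraries, below the lymphocyte shares. Both calls were lost when any RT or COLD library was left out. The number of members called was 4 without the filter on low counts and 6 with all 10 libraries and line as a block, with Gdf15 (2.50), Lgals3 (0.91) and Trem2 (0.81) among the 6. Over both lines, summed macrophage markers in monocyte-like cells were 1214 to 1575 CPM at RT and 1597 to 2191 CPM in COLD, B lymphocyte markers 283 to 498 and 140 to 176 CPM and VEC markers 57.1 to 90.6 and 51.8 to 55.3 CPM, and their part in the calls was not tested. Trem2 was not called, at 82.3 and 67.8 CPM at RT against 91.5 and 83.6 CPM in COLD (0.14, adjusted p = 0.847). Lgals3, at 2012 and 2420 CPM against 3129 and 2541 CPM, gave 0.27 (adjusted p = 0.596), and Cd9 gave −0.45 (adjusted p = 0.480). Apoe gave 0.28 and Tyrobp −0.20 (adjusted p = 0.678 and 0.701), and Syngr1, at 0 CPM in both RT libraries and 11.3 and 4.23 CPM in COLD, was too low to be tested. Gdf15 gave 2.32 ± 0.58 (adjusted p = 0.0806) and passed with the replicate block (2.20, adjusted p = 0.00646). During CL none of the 8 was called (0.0764% of all genes called higher and 0.0636% lower) by edgeR or DESeq2, 2 (Gpnmb and Cd9) had an unadjusted p under 0.05, and Gpnmb passed with the replicate block (adjusted p = 0.0370).

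**Figure D4:**
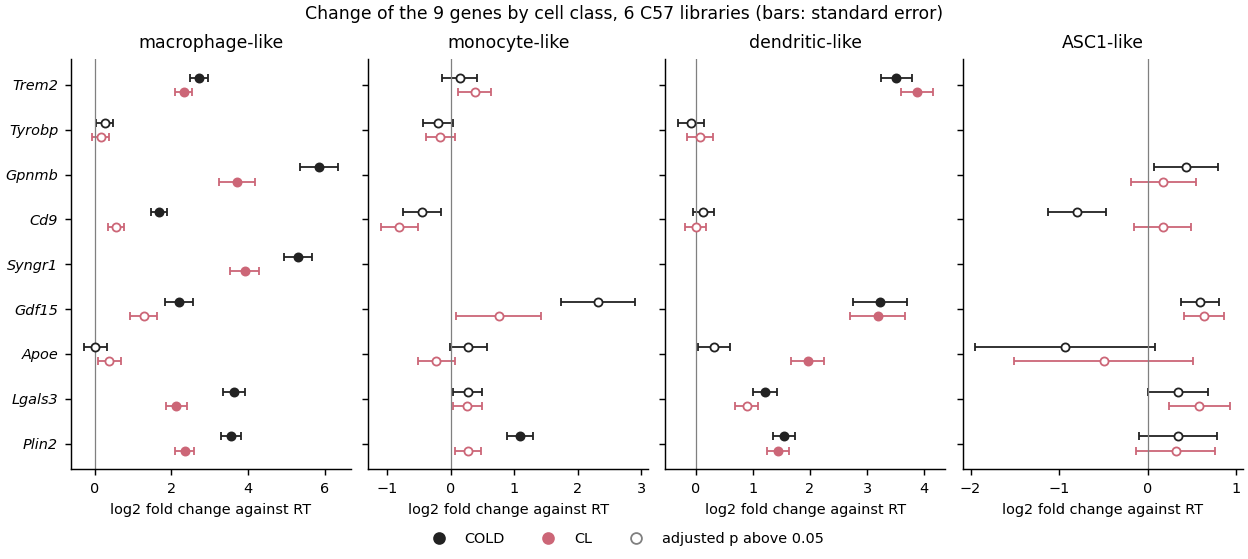
Log2 fold change of each gene against RT in COLD (black) and CL (red) with standard errors, from the fits of the 6 C57 libraries in 4 classes, for genes with at least 10 counts in the RT sums. Filled points, with adjusted p at or below 0.05, cover 7 genes in COLD in macrophage-like cells and none in ASC1-like cells.

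The cold response of each gene was compared between classes of the same experiments. Against monocyte-like cells, 4 of the 9 genes rose more in macrophage-like cells (6.36% of all genes, with 5.57% lower): Lgals3 by 3.27 ± 0.21, Trem2 by 2.48 ± 0.23, Plin2 by 2.40 ± 0.20 and Cd9 by 2.12 ± 0.24 on the log2 scale. Tyrobp, Apoe, Gdf15, Gpnmb and Syngr1 were not called there (adjusted p of 0.176 to 0.903). The monocyte-like RT sums of Gpnmb and Syngr1 held under 10 counts, too few for a fold, so the test could not compare the responses of these genes. Against dendritic-like cells, Lgals3 (2.35 ± 0.18), Plin2 (1.95 ± 0.18) and Cd9 (1.49 ± 0.17) rose more (9.46% of all genes), and Trem2 rose less, by −0.86 ± 0.26 (adjusted p = 0.0264, with 9.53% of all genes called lower). Gdf15 gave −1.12 ± 0.42 (adjusted p = 0.0720), and Tyrobp, Apoe, Gpnmb and Syngr1 were not called. The dendritic-like RT sums of Gpnmb and Syngr1 also held under 10 counts. The Apoe difference changed sign and was called when cells with the highest doublet scores were left out, with values given in the closing section. The Trem2 difference compares a rise from 134 and 150 CPM with a rise from 8.10 and 6.71 CPM, in which the dendritic-like share in COLD was little above that of lymphocytes, and it was lost without RT replicate 1, RT replicate 2 or COLD replicate 1 (adjusted p of 0.0647, 0.319 and 0.164). Against ASC1-like cells, Gpnmb (5.65 ± 0.70), Lgals3 (3.40 ± 1.19), Plin2 (3.26 ± 0.73), Cd9 (2.53 ± 0.42) and Gdf15 (1.65 ± 0.35) rose more (8.16% of all genes), and Tyrobp, Syngr1, Trem2 and Apoe were not called. In the ASC1-like RT sums Trem2 and Syngr1 were at 0 CPM and Tyrobp at a mean of 0.82 CPM, too low to compare their responses. The Lgals3 difference there (adjusted p = 0.0419) was lost when either COLD library or either CL library was left out, and that of Plin2 without COLD replicate 1 (adjusted p = 0.0510).

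Stromal cells of the Lin- libraries expressed several of the genes. Trem2 and Tyrobp were near 0 in all 3 ASC types, with at most 0.73 CPM of Trem2 in ASC1-like cells. Apoe had a median over the 10 libraries of 3497 CPM in ASC1-like cells, 1275 CPM in ASC3-like cells and 73.7 CPM in ASC2-like cells, and the ranges of ASC1-like (1401 to 7168 CPM) and ASC2-like cells (25.1 to 147 CPM) did not overlap. Plin2 had medians of 611 CPM in ASC1-like, 71.0 CPM in ASC2-like and 89.9 CPM in ASC3-like cells. Gpnmb was highest among these in ASC3-like cells, with a median of 189 CPM against 54.4 CPM in ASC1-like and 32.0 CPM in ASC2-like cells. Cd9 had a median of 875 CPM in ASC3-like cells, 177 CPM in ASC1-like cells and 233 CPM in ASC2-like cells.

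Schwann-like cells, the glia of peripheral nerve (787 cells), had the highest medians of the named Lin- classes for Cd9 and Apoe. Their median was 5528 CPM for Cd9, 10780 CPM for Apoe, 1090 CPM for Lgals3 (1271 CPM in the dendritic-like cells of Lin-) and 31.9 CPM for Syngr1 (30.5 CPM in epithelial-like cells), while Trem2 and Tyrobp were at 0 in all 10 libraries. Vascular endothelial (VEC-like) and smooth muscle (VSMC-like) cells had medians of 742 and 523 CPM for Cd9, 767 and 331 CPM for Apoe and 194 and 252 CPM for Plin2.

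In the fits of the C57 libraries, none of the genes tested was called in any ASC type in COLD or CL. In ASC1-like cells 7 genes were tested, in comparisons that called 11.4% of all genes in COLD (5.4% lower) and 1.23% in CL (0.714% higher), and 2 and 1 of them had an unadjusted p under 0.05. In ASC2-like and ASC3-like cells 6 genes were tested, where 0.788% and 0.0183% (ASC2-like) and 0.169% and 0.0188% (ASC3-like) of all genes were called in COLD and CL (in COLD, 0.614% higher in ASC2-like and 0.047% lower in ASC3-like cells), and DESeq2 called 0 of the members in each comparison. In ASC2-like cells 1 gene had an unadjusted p under 0.05 under each treatment, and in ASC3-like cells 1 in COLD and 3 in CL. Cd9 in ASC1-like cells was 185 and 267 CPM at RT against 96.6 and 133 CPM in COLD (−0.80 ± 0.33, adjusted p = 0.148), with the WT and KO libraries at 292 and 243 CPM at RT against 68.7 and 63.4 CPM in COLD. With all 10 libraries and line as a block, where the kit differs with temperature in the Adrb1 line, 3 members were called in ASC1-like cells in COLD, Cd9 at −1.36 (adjusted p = 0.00388), Gdf15 at 0.76 (adjusted p = 0.0114) and Tyrobp at 2.0 (adjusted p = 0.0417). Without the filter on low counts 2 were called there. Markers of other cells moved with these calls. Over both lines, summed adipocyte markers in ASC1-like cells were 28.8 to 77.5 CPM at RT and 80.3 to 697 CPM in COLD, monocyte markers 110 to 171 and 356 to 906 CPM, proliferation markers 1.26 to 3.43 and 38.2 to 78.5 CPM and neutrophil markers 0 to 0.96 and 7.45 to 8.6 CPM. Macrophage markers were lower in COLD (428 to 618 against 200 to 270 CPM), as were the ASC markers themselves (34840 to 44336 against 20757 to 29604 CPM). Of the 10 macrophage markers, 4 to 7 were at 0 in the RT sums and 2 to 4 in COLD. Of the 11 monocyte markers, 6 to 8 were at 0 at RT and 3 to 4 in COLD. Of the 7 neutrophil markers, 5 to 7 were at 0 at RT and 3 to 4 in COLD. The sums of these lists therefore rest on the remaining genes. The part of all these markers in the calls was not tested. Apoe was 7168 and 5885 CPM at RT, 3290 and 3177 CPM in COLD and 3412 and 4839 CPM in CL, and the COLD difference of −0.93 ± 1.01 had an adjusted p of 0.589. Gpnmb, at 47.4 and 97.5 CPM at RT against 56.9 and 107 CPM in COLD, and Plin2, at 373 and 666 CPM against 552 and 587 CPM, overlapped between groups. Lgals3 (68.5 and 81.3 CPM at RT, 55.0 and 116 CPM in COLD) and Gdf15 (12.2 and 22.6 CPM, 25.7 and 19.2 CPM) overlapped as well, with adjusted p = 0.553 and 0.105, and Tyrobp was at most 3.19 CPM. Plin2 had the lowest p of the members in ASC2-like and ASC3-like cells under both treatments, with 0.81 (adjusted p = 0.396) and 1.04 (adjusted p = 0.220) in CL.

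**Figure D5:**
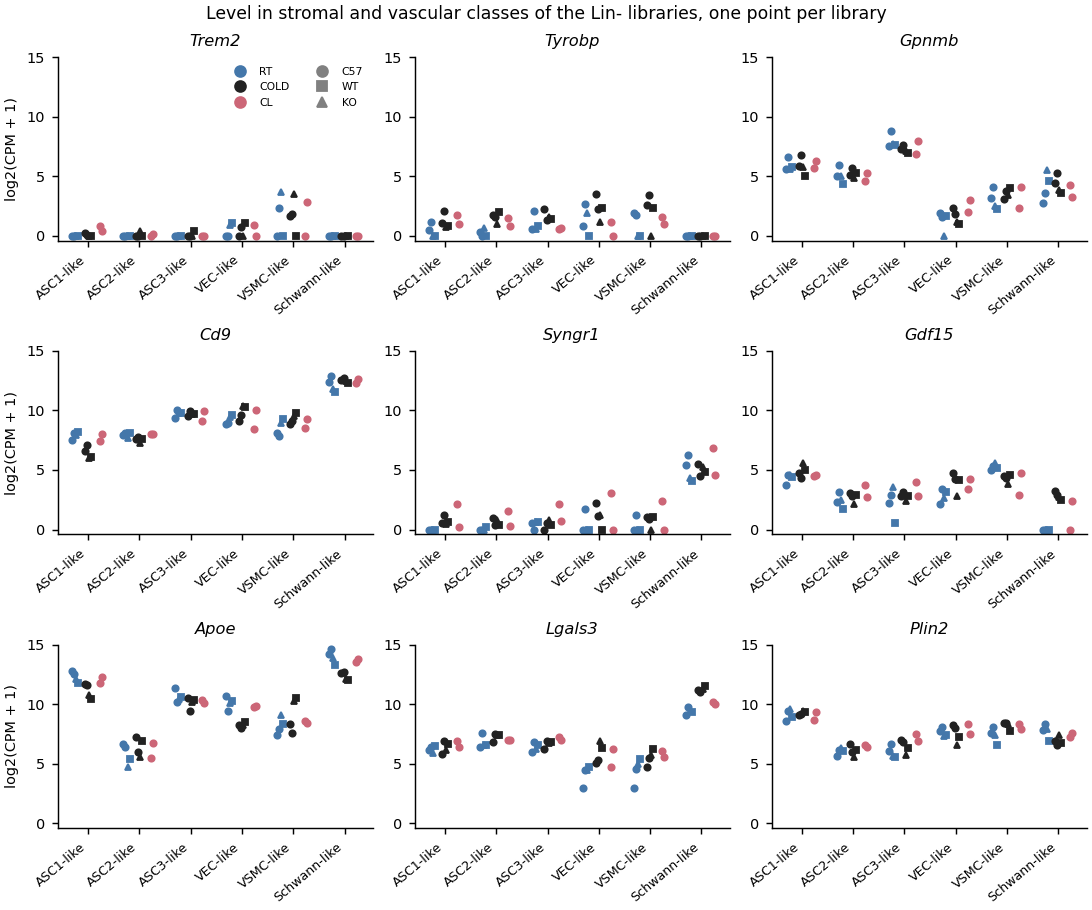
Level of each gene, as log2(CPM + 1), in 6 stromal, vascular and glial classes of the Lin- libraries, with 1 point per library and color for treatment. Trem2 and Tyrobp lay near 0 in ASC1-like to ASC3-like cells, Apoe and Plin2 were higher in ASC1-like than in ASC2-like cells, and Cd9 and Apoe were highest in Schwann-like cells.

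Genes of the surrounding pathways were read from lists in macrophage-like cells. Of 10 genes of TREM2 signalling, 3 rose in COLD, 1 fell and 6 were not called, with a median log2 fold change of 0.31 beside −0.02 over all genes, and with 17.8% of all genes called higher and 17.1% lower, near these shares of the list. The same percentages apply in COLD to the lists that follow, and in CL 3.58% of all genes were called higher and 2.7% lower. Pik3ap1, an adaptor for phosphoinositide 3-kinase, rose by 1.34 ± 0.37, Plcg2 by 0.62 and Vav1 by 0.51, and the receptor gene Cd33 fell by 2.24. None of the 10 was called in CL, or within any of the 3 clusters in COLD. The class-level values of this list and of those that follow compare RT sums mostly of cluster 3 with COLD sums mostly of clusters 12 and 14, so that a change within cells and the shift between clusters cannot be told apart in them. The COLD fits within clusters rest on 130 and 46 COLD cells in cluster 3, and on 32 and 59 RT cells in cluster 12 and 21 and 19 in cluster 14. They called 1.23% of all genes higher and 0.721% lower in cluster 3, 1.5% and 1.45% in cluster 12 and 0.204% and 0.357% in cluster 14.

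Of 15 tested genes of lipid uptake, storage and efflux, 11 rose in COLD, 1 fell and 3 were not called (median 1.22), and 7 rose in CL (median 0.80). Spp1, which encodes osteopontin, rose by 6.58 ± 0.68 in COLD and 5.66 in CL, the fatty acid carrier Fabp5 by 4.61 ± 0.50 and 3.06, and the oxysterol receptor Nr1h3 by 3.12 ± 0.34 and 1.54. Ch25h, which makes an oxysterol, fell by 2.65 in COLD. Within clusters, 0 of the 15 were called higher in COLD in cluster 3 (1.23% of all genes, median 0.30), 3 in cluster 12 (1.5%, median 0.64) and 1 in cluster 14 (0.204%, median 0.30), and none lower. Of 16 lysosomal genes, 12 rose in COLD, 1 fell and 3 were not called (median 1.21), and 8 rose in CL (median 0.86). The protease Ctsd rose by 3.68 ± 0.32 in COLD and 2.82 in CL, the proton pump subunit Atp6v0d2 by 3.71 ± 0.38 and 2.72, and the protease inhibitor Cstb by 2.15 in COLD, while the transcription factor Tfe3 fell by 0.85 in COLD. Cstb was not called in CL (0.86, adjusted p = 0.0579). Within clusters in COLD, 3 lysosomal genes were called higher in cluster 3 (1.23% of all genes, median 0.82), 6 in cluster 12 (1.5%, median 0.88) and 0 in cluster 14 (0.204%, median 0.51), and none lower. These fits called far fewer of all genes than the class fit, so the counts are not compared with those of the class.

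Genes for the uptake of dying cells moved in both directions. Of 10 on the list, 4 rose in COLD, 4 fell and 2 were not called, with a median of −0.47. The receptors Havcr2, Cd300lb and Itgav rose by 1.70, 1.29 and 0.96, whereas the phosphatidylserine receptor Timd4 fell by 3.90, Gas6 by 1.34 and Stab1 by 1.04. Within clusters, 1 was called lower in cluster 3 (0.721% of all genes) and none in cluster 12 (1.5% of all genes higher and 1.45% lower). In cluster 14, 1 was called higher (0.204%) and 1 lower (0.357%). All 10 genes on the list of resident macrophages fell in COLD over the whole class (median −1.72), with Cd163 at −4.48, Mrc1 at −2.45 and Cbr2 at −2.0. Within cluster 3 none of them was called lower (0.721% of all genes) and 2 were called higher (1.23%, median 0.32). Within cluster 14 none was called (0.204% of all genes higher and 0.357% lower, median 0.52), and within cluster 12 3 were called lower (1.45%, median −0.42). In CL 1 of them rose and 1 fell. Over both lines, summed markers of monocytes in macrophage-like cells were 575 to 1152 CPM at RT, 1905 to 5605 CPM in COLD and 1415 to 1487 CPM in CL. Neutrophil markers were 865 to 14181 CPM at RT, 178 to 2492 CPM in COLD and 434 to 3280 CPM in CL. B lymphocyte markers were 413 to 537, 93.1 to 134 and 290 to 461 CPM in the same order, and dendritic markers 1369 to 1380, 591 to 663 and 1131 to 1283 CPM. VEC markers were 15.5 to 39.1, 44.8 to 95.6 and 26.7 to 35.5 CPM. The part of these in the results was not tested. Summed markers of adipocytes were 36.8 to 54.7 CPM at RT, 12.9 to 30.3 CPM in COLD and 39.7 to 140 CPM in CL. Their list includes Car3, from which the removal of free RNA was estimated, so these sums depend in part on that correction.

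The genes closest to Trem2 and Gpnmb over the macrophage-like, monocyte-like and dendritic-like sums were found by Pearson correlation of log2(CPM + 1), across 30 sums from 10 libraries and 7448 genes. The sums of a library share its depth and free RNA, and the values are a description. For Trem2 they were Calm2 (0.92), Cd68 (0.91), Ubtd1 (0.90), Blvra (0.90) and Bri3 (0.89). For Gpnmb they were Syngr1 (0.97), Comtd1 (0.94), Glmp (0.93), Atp6v1c1 (0.93) and Gdf15 (0.92). Among the 9 genes, Lgals3 with Plin2 gave 0.88, Trem2 with Gdf15 0.85 and Gpnmb with Plin2 0.85, whereas Trem2 with its adaptor Tyrobp gave 0.55 and Cd9 with Apoe −0.02.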

How the data were processed

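iBAT stromal vascular cells were separated by magnetic beads into Lin+ and Lin- fractions, and 10 libraries of each were sequenced with the 10x Genomics Chromium kit. Reads were processed by the authors with Cell Ranger 3.0.1 against mm10, per the submitters' processing notes. The authors deposited 1 matrix per library of expected counts: UMIs adjusted by SoupX, a tool that removes the contribution of free RNA as estimated from Fabp4 and Car3, adipocyte genes assumed absent from the sequenced cells. The correction lowers genes abundant in free RNA and leaves fractional counts. Car3 is also on the list of adipocyte markers, so the sums of that list depend in part on the correction in every class.

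Cells with under 10% mitochondrial counts, up to 15000 UMIs and, in Lin+, up to 4000 genes were kept (Lin-, at least 100 genes). They were normalized, reduced to 2000 variable genes and 30 principal components, aligned over 6 cohorts with the Harmony algorithm and clustered (Leiden, resolution 1, seed 1) in scanpy 1.11.5. Clusters were called "-like" from at least 3 raised markers of listed sets, and cells of other clusters stayed unnamed (5.1% to 13.0% of Lin+ cells per library, up to 40.2% in Lin-). Doublets were not removed in the main analysis.

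Corrected counts were summed per library and class, rounded, and tested with edgeR 4.0.16 (quasi-likelihood, TMM, filterByExpr, R 4.3.3) in 1 fit of the 6 C57 libraries of a fraction, with Benjamini-Hochberg adjustment over all genes tested and a threshold of 0.05, two-sided. Classes were compared with a class by treatment term. Folds are not given where the RT sums held under 10 counts. A count of 0 allows up to 3 counts, and all shares carry counting error besides the spread between libraries. Shares of cells with a UMI were compared after thinning to 1000 UMIs by an exact permutation test over libraries. Alternatives were DESeq2 1.42.0, its size factors, no filter, another resolution (2), removal of the top 6% of doublet scores, no upper limits, all 10 libraries, a replicate block and leaving out each library. After the data had been seen, 5 were added: permuting the shares within line, leaving out barcodes shared by the libraries of CL replicate 2 or the inflammatory cluster, testing each cluster alone, and testing lymphocytes as background. Replicate numbers mark C57 experiments run together, per the study's methods. The correlation of same-numbered deviations ranged from −0.09 to 0.44 over 18 pairs of groups. Summed counts of replicates differed by more than sampling noise, which repeat libraries of a single pool could also do. All were counted as separate samples because the paper describes independent experiments. The statistics were tested on simulated data.

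The members, gene lists and comparisons were chosen with earlier results of these data known. The rule for named genes took all 9 members. List genes are named by the lowest p per direction in COLD (up to 3), and the 5 genes most like Trem2 and Gpnmb by correlation. Gene coordinates are from GENCODE M21.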

Additional observations from a re-analysis of the deposited data

Results flagged for a closer look

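The cold response differed between cell classes in 8 comparisons of a gene between Lin+ classes and 5 with stromal cells, by a class by treatment term in edgeR. Macrophage-like cells rose more than monocyte-like cells in Lgals3 (log2 difference 3.27), Trem2 (2.48), Plin2 (2.40) and Cd9 (2.12). They rose more than dendritic-like cells in Lgals3 (2.35), Plin2 (1.95) and Cd9 (1.49), and less in Trem2 (−0.86). They rose more than ASC1-like cells in Gpnmb (5.65), Lgals3 (3.40), Plin2 (3.26), Cd9 (2.53) and Gdf15 (1.65). The libraries whose removal ended a call are named beside these values in the report. The differences are those of class sums, whose clusters changed in proportion with COLD. Of 18 groups of 4 libraries examined, 1 held a share that stood apart from the others. After thinning to 1000 UMIs, Lgals3 was detected in 82.2% of macrophage-like cells of KO COLD, against 89.9% to 90.8% in the other COLD libraries. Chance alone marks about 1 in 20 such groups, and KO COLD has no second library.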

How the results depend on the processing

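The 7 genes called higher in COLD in macrophage-like cells were called in all 17 settings, the main one included, with log2 fold changes of 2.40 to 3.04 for Trem2 and 5.26 to 6.84 for Gpnmb. Tyrobp passed in 1 of them, the fit of all 10 libraries. Over 18 comparisons, 221 counts of called members stayed within 1.5 times the main count and 33 did not, most of them after leaving out a library. With each library left out in turn, the count ranged from 1 to 5 in CL against RT and from 0 to 5 in COLD against CL in macrophage-like cells. It ranged from 0 to 4 (COLD) and 0 to 1 (CL) in monocyte-like cells, where leaving out either CL library gave 4, and from 4 to 6 (COLD) and 0 to 7 (CL) in dendritic-like cells. It ranged from 3 to 5 for macrophage-like against ASC1-like and against dendritic-like cells, and was 0 in the 3 ASC types and in KO against WT in these fits. The 7 shares with an exact permutation p = 0.0286 gave p = 0.0571 without any of the 8 libraries, the smallest p that 3 against 4 allow, and permuting within line, an alternative chosen after seeing the data, left 0 of them under 0.05.

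Without the filter on low counts, the count of called members was 4 (COLD) and 3 (CL) in monocyte-like cells, 2 (COLD) and 1 (CL) in ASC1-like cells, 1 in ASC2-like cells in CL and 2 in ASC3-like cells in CL. With all 10 libraries it was 6 in monocyte-like and 3 in ASC1-like cells in COLD. At Leiden resolution 2 it was 3 in dendritic-like cells in CL. The replicate block gave 1 in monocyte-like cells in CL and, beside the calls given in the report, changed no other call. The difference of Apoe between the cold responses of macrophage-like and dendritic-like cells reversed from −0.32 (not called) to 0.72 (adjusted p = 0.0294) when cells with the highest doublet scores were left out, and the cause was not tested. With DESeq2 the median log2 fold change of all genes was −0.14 in macrophage-like and −0.11 in dendritic-like cells in COLD, and −0.36 and −0.38 for the differences from monocyte-like and ASC1-like cells, and no member called by edgeR had the opposite sign by DESeq2. Leaving out barcodes shared by both libraries of CL replicate 2 changed no count.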
